A study of Mus musculus with 12 samples.

Results

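Divergent gene pairs are neighbours on opposite strands that are transcribed away from each other from starts lying close together. The pairs described here were all genes on 1 chromosome and opposite strands in which the start of the + strand gene lay from 200 bases before to 1000 bases after the start of the - strand gene, with a mean level of at least 1 TPM (transcripts scaled by length and by library total) for both genes over 12 libraries. The rule found 914 pairs, made of 1804 genes, which is 12.8% of the 14107 genes that passed the same floor. By position alone 2390 pairs lay head to head, and 38.2% of them had both sides at the floor. The pairs were thus selected on their annotated starts and their mean TPM over all libraries, so their levels are a description. Of the 1804 genes, 1739 were at 1 TPM or more in the mean of each of the 4 groups and 65 were below it in at least 1 group. The cells were mouse embryonic stem cells, which can form every tissue of the embryo, and poly(A) RNA was measured by sequencing. The 4 groups of 3 libraries were wild-type cells without drug, wild-type cells given etoposide, Bod1l knockout cells without drug and Bod1l knockout cells given etoposide, which causes double-strand breaks by trapping topoisomerase II on DNA. The titles of the knockout libraries alone name tamoxifen, so the knockout and tamoxifen cannot be told apart. The labels give no cell line or clone, no dose and no time of treatment. Bod1l encodes a subunit of the SETD1A histone methyltransferase complex, and the series title ties this complex to how repair genes are expressed.

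In mammals a stretch of open, CpG-rich DNA between head-to-head starts can serve both genes, although each direction assembles its own transcription machinery and its own transcript is then spliced, ended and degraded separately. Such bidirectional promoters are known to be common among housekeeping genes and among genes of DNA repair and of mitochondria. SETD1 complexes place trimethylation on lysine 4 of histone H3 at active CpG-rich promoters.

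Bod1l was at 48.5 to 50.6 TPM in untreated and 46.5 to 51.1 TPM in treated wild-type libraries, and at 11.2 to 12.0 and 11.7 to 13.0 TPM in the knockout libraries, so the labels held for all 12. Depth, worked out as aligned bases, was 5.23 to 7.76 gigabases per library. The summed level of the 11 of 12 embryonic stem cell markers found was 8201 to 8786 TPM in wild-type and 7531 to 8095 TPM in knockout libraries. Dppa5a, the largest part of this sum, was at 3712 to 4082 TPM in wild-type and 3198 to 3404 TPM in knockout libraries. Pou5f1, Utf1 and Lin28a were also lower in the knockout within each treatment. The wild-type and knockout ranges overlapped for Nanog, Sox2, Zfp42, Esrrb, Klf4, Tfcp2l1 and Sall4. Feeder fibroblast markers summed to 4.76 to 7.50 TPM over all libraries, with S100a4 at 0. The 5 markers of 2-cell-like cells, a rare state in such cultures, summed to 1.91 to 3.75 TPM in wild-type and 26.2 to 30.9 TPM in knockout libraries. The 5 endoderm markers summed to 2.2 to 4.25 TPM in wild-type and 4.50 to 5.85 TPM in knockout libraries, with Sox17 at most 0.318 and Foxa2 at most 0.233 TPM. Several of these marker levels moved with genotype, and their part in the results below was not tested.

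The promoters of 9 pairs are shown because they rank high, among pairs with no clone or model name, in the patterns described below in the knockout comparisons, with Rad51c/Tex14 added, after its values were seen, as a repair pair in which both sides fell. Pairs are written with the - strand gene first. Each sequence is the RefSeq promoter window of the + strand gene (build GRCm38.p6, + strand), 250 bases before to 50 bases after its start, so that the + gene starts at position 251 counted from 1 at the 5′ end and the last 50 bases lie in that gene. The libraries were aligned to another build, and these coordinates were not converted. Capitals mark matches on either strand to CCGGAAG (ETS factors such as GABP), GCGCATGCG (NRF1), CCAAT (NF-Y), ATGGCGGC (YY1) and TGACGTCA (CRE). A window with no capitals lacks these letters.
Orc3/Rars2, chr4:34614707-34615006: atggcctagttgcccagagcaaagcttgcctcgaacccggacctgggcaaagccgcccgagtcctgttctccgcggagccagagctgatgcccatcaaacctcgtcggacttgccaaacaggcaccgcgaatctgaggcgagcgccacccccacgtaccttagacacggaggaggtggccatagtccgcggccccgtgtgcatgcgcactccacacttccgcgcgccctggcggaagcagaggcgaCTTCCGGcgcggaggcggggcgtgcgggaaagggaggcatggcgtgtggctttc
Col4a1/Col4a2, chr8:11312555-11312854: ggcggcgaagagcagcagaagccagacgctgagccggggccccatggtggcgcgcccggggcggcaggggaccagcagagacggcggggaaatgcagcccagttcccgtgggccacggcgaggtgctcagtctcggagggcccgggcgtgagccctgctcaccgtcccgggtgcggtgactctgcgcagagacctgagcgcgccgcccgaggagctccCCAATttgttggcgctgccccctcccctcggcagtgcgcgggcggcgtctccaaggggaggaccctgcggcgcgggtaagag
Tmtc3/Cep290, chr10:100487332-100487631: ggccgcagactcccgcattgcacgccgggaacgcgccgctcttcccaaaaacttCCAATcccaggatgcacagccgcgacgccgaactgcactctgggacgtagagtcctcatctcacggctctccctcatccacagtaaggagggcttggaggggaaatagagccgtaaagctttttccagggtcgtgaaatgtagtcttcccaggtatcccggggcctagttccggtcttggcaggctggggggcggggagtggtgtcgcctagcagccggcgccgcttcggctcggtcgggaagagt
Mmachc/Ccdc163, chr4:116708345-116708644: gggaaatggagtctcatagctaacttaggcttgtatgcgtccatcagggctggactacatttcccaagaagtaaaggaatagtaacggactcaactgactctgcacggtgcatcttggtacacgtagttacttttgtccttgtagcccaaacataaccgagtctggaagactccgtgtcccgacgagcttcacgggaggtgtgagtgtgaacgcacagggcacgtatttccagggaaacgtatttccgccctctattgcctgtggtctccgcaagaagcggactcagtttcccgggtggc
Coa3/Cntd1, chr11:101278953-101279252: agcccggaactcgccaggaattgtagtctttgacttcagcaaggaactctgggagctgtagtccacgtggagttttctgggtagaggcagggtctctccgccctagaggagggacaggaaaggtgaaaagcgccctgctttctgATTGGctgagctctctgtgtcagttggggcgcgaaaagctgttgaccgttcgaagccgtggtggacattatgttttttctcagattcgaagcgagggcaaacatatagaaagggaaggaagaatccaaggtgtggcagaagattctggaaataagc
S100a1/S100a13, chr3:90514185-90514484: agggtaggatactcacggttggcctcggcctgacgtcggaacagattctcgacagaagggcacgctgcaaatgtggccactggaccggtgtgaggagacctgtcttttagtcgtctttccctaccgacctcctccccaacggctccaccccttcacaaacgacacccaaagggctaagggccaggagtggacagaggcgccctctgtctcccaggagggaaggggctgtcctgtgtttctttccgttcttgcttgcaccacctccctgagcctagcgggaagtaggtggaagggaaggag
Cetn4/Bbs12, chr3:37312304-37312603: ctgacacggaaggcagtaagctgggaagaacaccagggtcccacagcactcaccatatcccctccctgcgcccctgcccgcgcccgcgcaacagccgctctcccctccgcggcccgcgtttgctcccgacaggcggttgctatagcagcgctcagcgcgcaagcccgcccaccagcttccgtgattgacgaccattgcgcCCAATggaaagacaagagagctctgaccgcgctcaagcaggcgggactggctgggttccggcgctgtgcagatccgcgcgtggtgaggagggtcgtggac
Rad9b/Vps29, chr5:122354078-122354377: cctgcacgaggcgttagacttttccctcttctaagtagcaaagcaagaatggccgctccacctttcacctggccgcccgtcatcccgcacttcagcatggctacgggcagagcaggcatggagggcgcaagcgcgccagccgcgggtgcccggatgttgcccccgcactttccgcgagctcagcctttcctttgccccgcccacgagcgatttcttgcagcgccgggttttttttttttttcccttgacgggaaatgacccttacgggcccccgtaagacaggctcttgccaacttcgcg
Rad51c/Tex14, chr11:87404815-87405114: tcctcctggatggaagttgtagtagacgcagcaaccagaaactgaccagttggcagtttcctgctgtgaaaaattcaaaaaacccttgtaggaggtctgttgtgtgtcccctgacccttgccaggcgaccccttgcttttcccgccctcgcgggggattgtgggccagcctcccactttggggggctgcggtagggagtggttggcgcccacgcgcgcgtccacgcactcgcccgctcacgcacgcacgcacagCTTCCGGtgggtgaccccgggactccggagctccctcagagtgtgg

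In the RefSeq table the - gene starts inside 8 of these windows, at position 236 for Orc3, 272 for Col4a1, 16 for Tmtc3, 41 for Mmachc, 146 for S100a1, 143 for Cetn4, 128 for Rad9b and 140 for Rad51c, and the bases to the left of that position lie in the - gene. Coa3 starts outside its window. In the deposited tables the + start minus the - start was -45 bases for Mmachc/Ccdc163 and -95 for S100a1/S100a13, so the transcribed regions overlapped. It was 210 and 105 bases in the RefSeq table. The GC content was 73.7% with 33 CpG dinucleotides for the collagen pair Col4a1/Col4a2, 66.3% with 30 for Orc3/Rars2 and 51.3% with 12 for Coa3/Cntd1. An ETS match lay across the Rars2 start and just after the Tex14 start, and CCAAT matches lay in the windows of Col4a2, Cep290, Cntd1 and Bbs12. The windows of Ccdc163, S100a13 and Vps29 held none of the 5 motifs. The table held no window for Sncg/Mmrn2 and Qtrt2/Ccdc191.

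The starts lay close together in most pairs. In the starts used by the deposited tables, the + gene began a median of 93 bases after the - gene (quartiles 31 and 195), 657 pairs (71.9%) had an offset of 0 to 300 bases and 130 an offset over 300 bases. In 127 pairs the + gene began before the - gene, so that the transcribed regions overlapped, and in 3 pairs both began at the same base. Both genes were protein coding in 701 pairs, and a protein-coding gene faced a long noncoding RNA in 147. Chromosome 11 held the most pairs, 90, and the X chromosome the fewest, 15. Of the genes, 23 belonged to more than 1 pair, so 43 pairs shared a gene with another pair and are not independent.

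**Figure D1:**
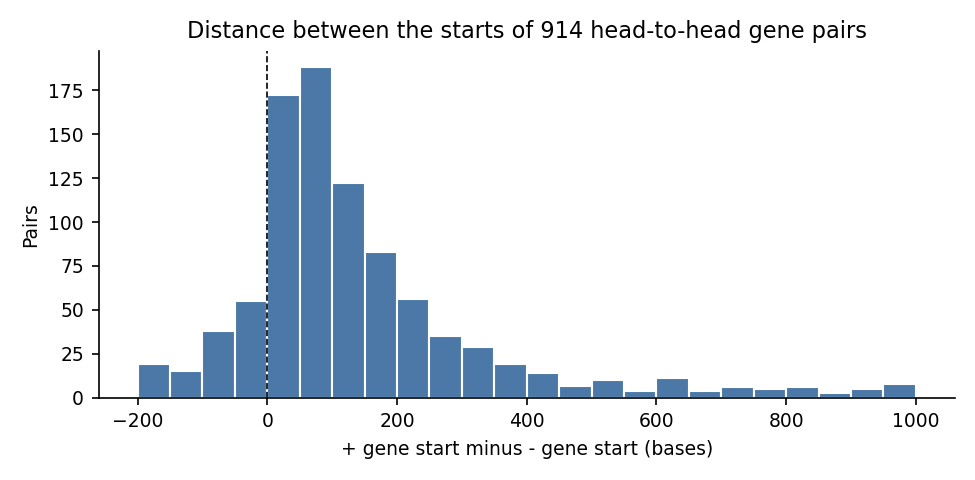
Number of divergent pairs by the distance in bases from the start of the - gene to the start of the + gene, with negative values where the + gene starts first. The bars rise to the left of the middle, around the median of 93 bases, and thin out beyond 300 bases.

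The levels of the 2 sides were unequal. The median member was at 31.7 TPM, against 19.1 TPM for the other genes tested. The side with the higher mean TPM was a median of 4.02 times the other (quartiles 2.05 and 12.3), 223 pairs (24.4%) had sides within 2-fold and 259 had sides more than 10-fold apart. Across the 914 pairs the log2 levels of the sides had a Pearson correlation of -0.07, a description over pairs that share libraries and are not replicates. At the limits of the rule, H3f3b/Unk at 196 and Spcs1/Glt8d1 at 193 bases of overlap were inside, and Ing2/AA386476 at 201 and Klhl17/Noc2l at 202 bases were outside. Pcgf2/Psmb3 at 1000 and Zbtb37/Gm22489 at 988 bases were inside at the other end, and Ddias/Prcp at 1006 and 0610010K14Rik/Gm40191 at 1029 bases were outside. At the expression floor, Gm11592 beside Npepps (mean 1.00 TPM) and Gm15834 beside Orc2 (1.01 TPM) were inside, while 1700001G11Rik beside Trim35 (0.990 TPM) and Gm53847 beside Zic5 (0.985 TPM) were outside.

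In untreated cells, members fell in the knockout more often than they rose. A gene was called changed at a Benjamini-Hochberg adjusted p under 0.05 in limma, fitted on log2(TPM + 1) over all 14107 genes, and differences are given on that scale as knockout minus wild type ± SE with 3 libraries per group. Of the 1804 members, 547 were lower (30.3%) and 459 higher (25.4%), 1006 in all (55.8%), beside 21.5% lower, 28.1% higher and 49.6% changed among all genes tested. The balance over all genes depended on the unit. With FPKM 3204 genes were lower and 3090 higher, and of the members 557 were lower and 376 higher. The median difference was -0.00 over the members and 0.04 over all genes. The quartiles were -0.21 and 0.16 over the members and -0.14 and 0.21 over all genes. In these bulk samples, fewer cells of a type and less RNA per cell cannot be told apart.

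The 2 sides of a pair moved in opposite directions about as often as in the same one in this comparison. Both sides were lower in 83 pairs (9.08%, beside 5.22% of all 14106 neighbouring gene pairs), both were higher in 61 (6.67%, beside 8.72%) and the sides moved in opposite directions in 147 (16.1%, beside 11.2%). In 441 pairs 1 side was called and in 182 neither was. Of the single genes, 55.8% of members and 49.6% of all genes were called, and these shares of pairs are not adjusted for that. Among the 291 pairs with both sides called, 49.5% moved in the same direction, against 55.4% of the 3550 such neighbouring pairs. The Pearson correlation between the differences of the 2 sides was -0.00 over the 914 pairs, 0.11 over all neighbouring pairs, 0.11 over 508 other head-to-head neighbours up to 10000 bases apart and 0.21 over 914 same-strand neighbours within that distance. These correlations are descriptions over pairs from the same libraries. In the 127 pairs with overlapping starts it was 0.02.

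**Figure D2:**
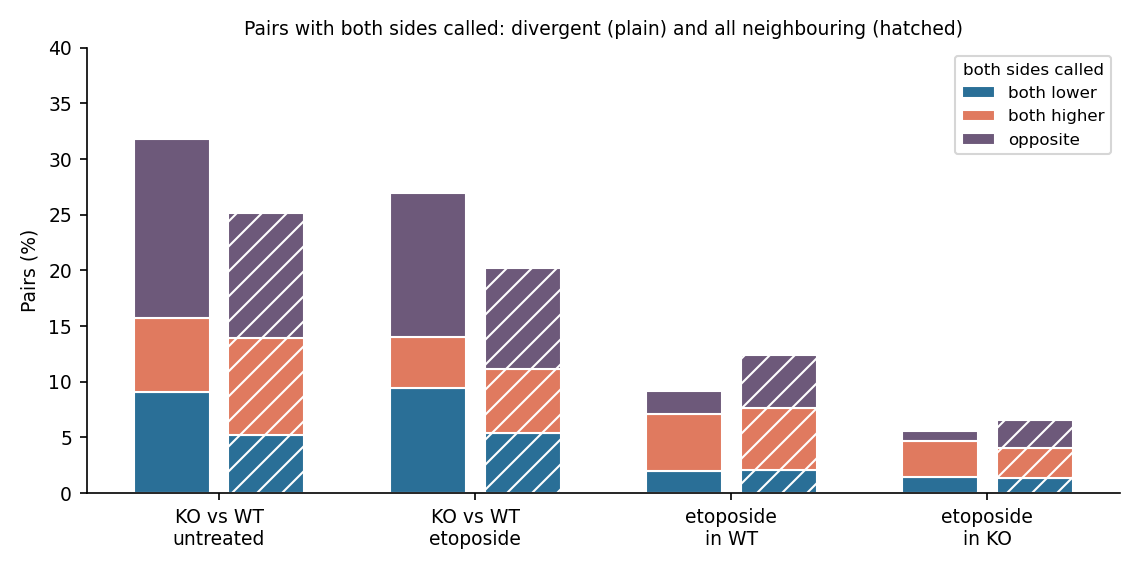
Percent of pairs (bar height, axis from 0) in which both sides were lower, both were higher or the sides moved in opposite directions, for the 4 comparisons; plain bars are the 914 divergent pairs and hatched bars all 14106 neighbouring pairs. In untreated knockout against wild type the divergent pairs reach 16.1% opposite and 9.08% both lower, beside 11.2% and 5.22%. The shares are not adjusted for how often single genes were called (55.8% of members and 49.6% of all genes).

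The difference between the sides was also tested directly, as the change of the + gene minus the change of the - gene within each library, in 1 limma fit over all neighbouring pairs. The sides differed in 490 of 914 pairs (53.6%, beside 45.4% of all neighbouring pairs). The median size of these differences was 0.55 and 73 reached 1 on the log2 scale. The sides moved in opposite directions in 147 of the 490, both fell in 47, both rose in 14 and 1 side was called in 275. Where 1 side was called, it was the side with the lower level in 169 pairs and the side with the higher level in 106. The 7 others had neither side called.

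**Figure D3:**
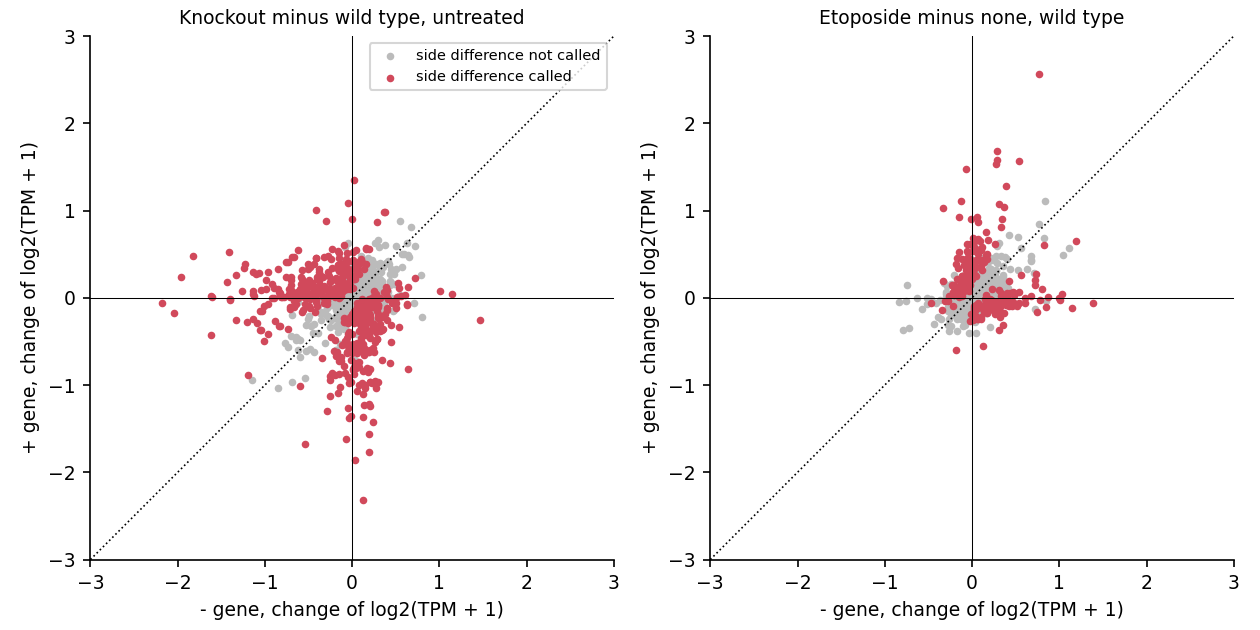
Difference of the + gene (vertical axis) against that of the - gene (horizontal axis) on the log2(TPM + 1) scale for the 914 pairs, in untreated knockout against wild type and in etoposide against none in wild type; red points are pairs whose sides differed by the test. In the knockout panel the red points spread along both axes (490 pairs), and in the etoposide panel 225 are red.

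The members that fell furthest stood beside partners that rose about as often as they fell. At a called change of at least 2-fold, 58 members were lower (3.22%, beside 1.42% of all genes) and 6 higher (beside 0.844%), so members made up 29.0% of the 200 genes that fell this far. The share lower at 2-fold was 5.76% of the 278 members at 1 to 5 TPM (1.57% of all genes at that level), 4.39% of 865 at 5 to 50 TPM (2.00%) and 0.605% of 661 at 50 TPM or more (0.321%). Of the 58 partners, 18 were lower, 19 higher and 21 not called, none was itself 2-fold lower, and their median difference was 0.01 (quartiles -0.23 and 0.19, from -0.94 to 0.53). Of all members 30.3% were lower, 25.4% higher and 3.22% at least 2-fold lower, and of all genes 21.5%, 28.1% and 1.42%. The members that fell were on the + strand in 24 pairs and on the - strand in 34. Their median level was 9.79 TPM and that of the partners 33.9 TPM. The count of 58 differed between settings, being 95 of 345 genes with a pseudocount of 0.1 and 33 with FPKM in place of TPM.

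**Figure D4:**
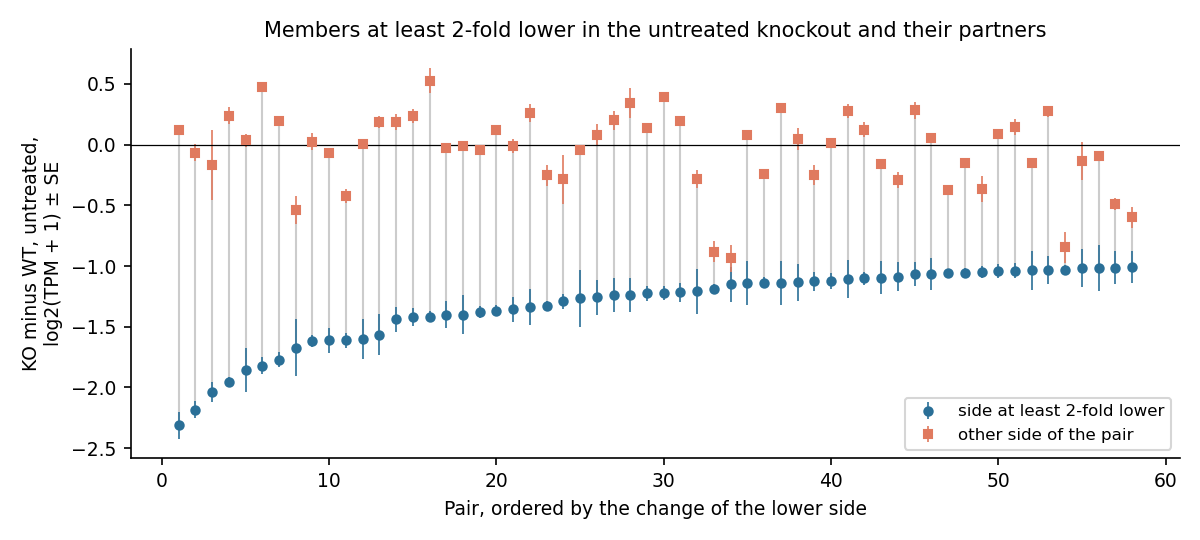
Difference in untreated knockout against wild type, on the log2(TPM + 1) scale with bars of 1 SE, for the 58 members at least 2-fold lower and for the partner of each. The members run from -2.31 to about the -1 limit while the partners scatter around 0, between -0.94 and 0.53.

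Ccdc191, which encodes a coiled-coil protein, fell furthest. It was at 14.4, 13.6 and 14.8 TPM in untreated wild type and 1.92, 1.61 and 2.80 TPM in the untreated knockout. Its partner Qtrt2, a subunit of the enzyme that puts queuine into tRNA, starts 109 bases away and was at 59.5, 59.7 and 60.2 TPM in wild type and 65.4, 65.00 and 65.3 TPM in the knockout. The libraries of the 2 genotypes did not overlap for either gene, Ccdc191 being low in all 3 knockout libraries and Qtrt2 a little higher. Ccdc191 differed by -2.31 ± 0.11 (limma adjusted p = 1.93e-08) and Qtrt2 by 0.12 ± 0.03 (limma adjusted p = 0.00317), and the sides differed by -2.44 ± 0.12 (limma adjusted p = 2.82e-08).

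Mmachc, needed to process vitamin B12, was at 55.5, 56.1 and 54.5 TPM in untreated wild type and 13.9, 13.1 and 13.5 TPM in the knockout, while Ccdc163 on the other side was at 26.8, 26.2 and 25.5 TPM in wild type and 31.3, 31.7 and 30.1 TPM in the knockout. Neither gene's libraries overlapped between genotypes. Mmachc differed by -1.96 ± 0.04 (limma adjusted p = 7.62e-11) and Ccdc163 by 0.24 ± 0.07 (limma adjusted p = 0.013). Gemin6, part of the SMN complex that assembles spliceosomal particles, was at 78.9, 78.4 and 78.03 TPM in wild type and 21.3, 25.4 and 20.4 TPM in the knockout, a difference of -1.77 ± 0.06 (limma adjusted p = 1.68e-09). The splicing factor Srsf7 beside it was at 374, 376 and 366 TPM in wild type and 424, 430.2 and 426 TPM in the knockout, a difference of 0.20 ± 0.02 (limma adjusted p = 6.06e-06), so the knockout libraries were low for 1 side and high for the other. The starts of Srsf7 and Gemin6 lay 199 bases apart in the deposited tables but 17146 bases apart in the RefSeq table, so a shared promoter is uncertain for them. Zdhhc6, a palmitoyltransferase of the endoplasmic reticulum, was at 45.8, 46.1 and 50.2 TPM in wild type and 16.9, 17.6 and 16.8 TPM in the knockout, while Vti1a, a SNARE of vesicle traffic 21 bases away, was at 6.25, 5.86 and 7.21 TPM in wild type and 8.56, 10.7 and 9.97 TPM in the knockout. Zdhhc6 differed by -1.42 ± 0.05 and Vti1a by 0.53 ± 0.11, with a side difference of 1.94 ± 0.09 (limma adjusted p = 2.00e-08). None of the gene libraries in these 4 pairs overlapped between untreated genotypes.

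**Figure D5:**
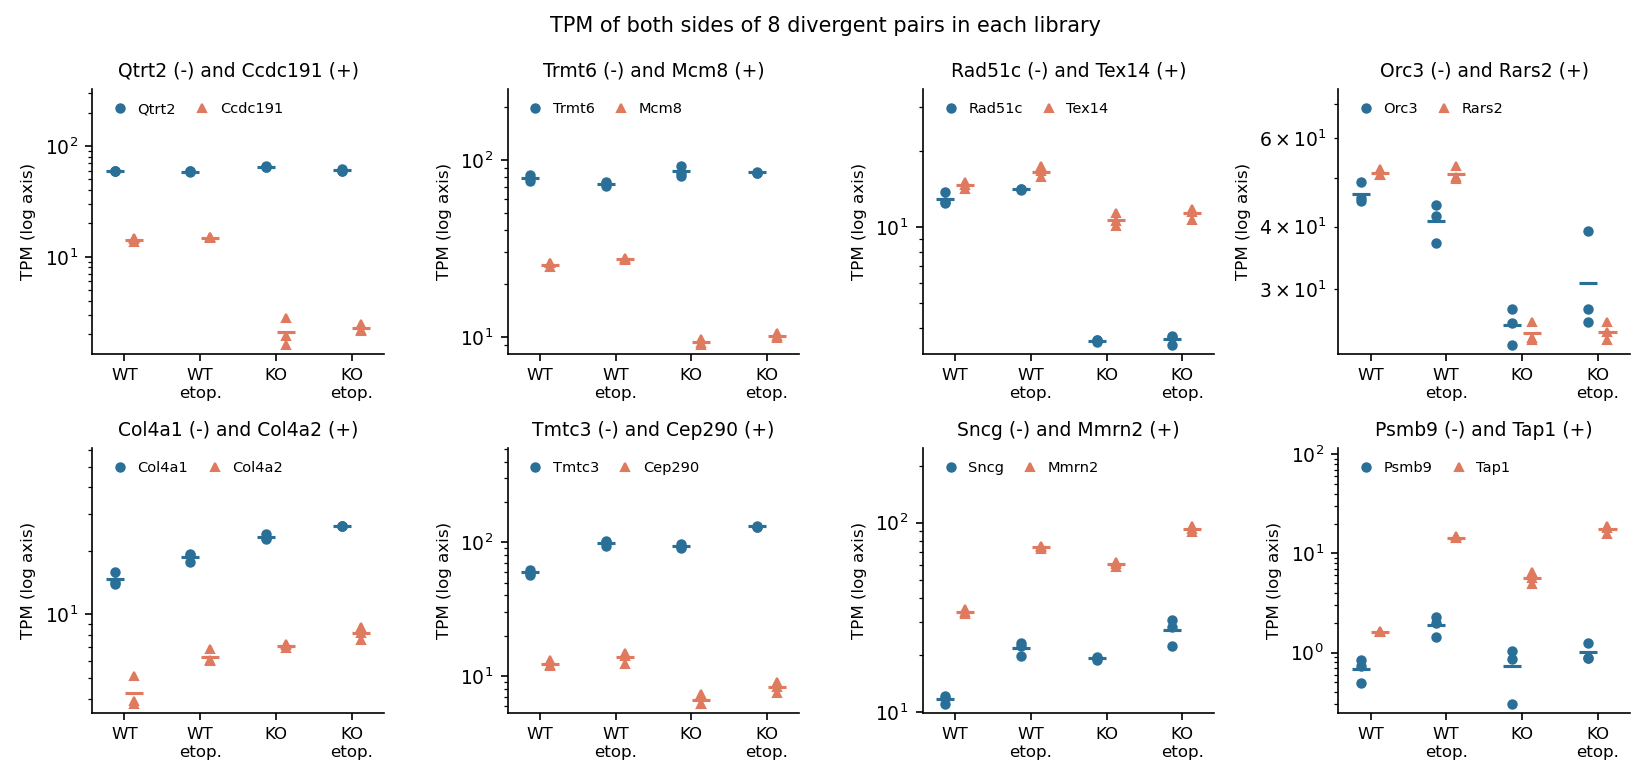
TPM of both sides of 8 divergent pairs in each of the 12 libraries (points, log axis) with group means (bars). Ccdc191, Mcm8 and Rad51c drop in all 6 knockout libraries while Qtrt2 and Trmt6 stay near their wild-type level, and Tap1 rises with etoposide in both genotypes.

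Repair genes were frequent among the pairs, and their partners were mostly not repair genes. Of 188 tested genes of a DNA repair list, 71 (37.8%) stood in 72 of the pairs, beside 12.8% of all tested genes, and only 1 pair held a repair gene on both sides. In the untreated knockout 36 of the 71 were lower and 10 higher, beside 21.5% lower and 28.1% higher of all genes, with a median difference of -0.11. Of their 71 partners 22 were lower and 17 higher, with a median of -0.00. The 117 repair genes outside the pairs had 47 lower and 26 higher, with a median of -0.08. The list was chosen with earlier results of these data known, so its direction is a description.

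Mcm8, part of a helicase used in homologous recombination, was at 26.03, 24.9 and 25.97 TPM in untreated wild type and 9.75, 9.19 and 9.04 TPM in the knockout. Trmt6, a tRNA methyltransferase subunit that overlaps its start by 66 bases, was at 79.3, 82.2 and 75.5 TPM in wild type and 84.7, 81.6 and 91.8 TPM in the knockout. The Mcm8 libraries did not overlap between genotypes and those of Trmt6 did. Mcm8 fell by 1.37 ± 0.05 (limma adjusted p = 1.51e-09) and the sides differed by -1.49 ± 0.07 (limma adjusted p = 2.88e-08). The small rise of Trmt6 (0.12 ± 0.04, limma adjusted p = 0.0373) was lost in 10 of 21 alternatives (limma adjusted p from 0.0557 to 0.155 without untreated wild type 1 or 3 or untreated knockout 1 or 3). Rad51c, a protein of homologous recombination, was at 12.5, 13.8 and 12.6 TPM in wild type and 3.57, 3.59 and 3.51 TPM in the knockout, and Tex14, a protein of germ cell bridges 59 bases away, was at 14.7, 15.1 and 14.2 TPM in wild type and 11.4, 10.6 and 10.1 TPM in the knockout. Both sides of this pair were low in every untreated knockout library, with no overlap, but Rad51c differed by -1.61 ± 0.06 and Tex14 by -0.42 ± 0.06, a side difference of 1.19 ± 0.08 (limma adjusted p = 3.04e-07).

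Fancd2, the protein of the Fanconi anaemia pathway that is ubiquitinated at crosslinks, was at 41.2, 40.6 and 43.1 TPM in wild type and 23.1, 22.4 and 22.7 TPM in the knockout. Emc3, of the membrane insertion complex of the endoplasmic reticulum, starts 23 bases away and was at 50.6, 54.4 and 56.97 TPM in wild type and 62.7, 59.5 and 55.4 TPM in the knockout. Fancd2 fell by 0.84 ± 0.03 (limma adjusted p = 4.03e-09) with no overlap of libraries, and the Emc3 libraries overlapped (0.13 ± 0.06, limma adjusted p = 0.0959). The helicase gene Recql was at 27.7, 27.5 and 26.6 TPM in wild type and 13.6, 13.4 and 12.97 TPM in the knockout, a difference of -0.98 ± 0.04 (limma adjusted p = 8.09e-09), while its partner Golt1b, a Golgi transport protein, was at 79.6, 86.4 and 81.5 TPM in wild type and 92.9, 89.8 and 82.9 TPM in the knockout (0.10 ± 0.04, limma adjusted p = 0.0802). The Recql libraries of the genotypes were apart and those of Golt1b overlapped. Babam2, of the BRCA1-A complex, was at 62.3, 60.9 and 66.1 TPM in wild type and 25.1, 23.8 and 26.7 TPM in the knockout (-1.29 ± 0.06, limma adjusted p = 1.24e-08), with no overlap. Its partner Rbks, ribokinase, was near the floor at 1.75, 1.73 and 1.29 TPM in wild type and 0.571, 1.60 and 1.33 TPM in the knockout, and its groups overlapped.

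Genes of mitochondrial proteins and of tRNA also stood in many pairs, and more of them fell than rose. Of 241 mitochondrial protein genes 74 (30.7%) were members, of which 39 were lower and 8 higher in the untreated knockout (median -0.11), against 21 lower and 11 higher of their 67 partners outside the list and 78 lower and 16 higher of the 167 listed genes outside the pairs. Of 34 tRNA synthetase genes 12 (35.3%) were members, 8 lower and 1 higher (median -0.36), with 6 lower and 1 higher of 10 partners. Of 55 tRNA modification genes 19 (34.5%) were members, 13 lower and 3 higher (median -0.26), with 10 lower and 5 higher of 19 partners. Listed tRNA genes outside the pairs also fell more often than they rose. Of 22 such synthetase genes 11 were lower and 5 higher (median -0.07), and of 36 modification genes 18 were lower and 4 higher (median -0.10). The 3 lists are described by these counts beside the 21.5% lower and 28.1% higher of all genes.

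Tfb1m, which methylates mitochondrial ribosomal RNA, was at 28.1, 28.1 and 26.6 TPM in wild type and 6.48, 5.46 and 6.00 TPM in the knockout (-2.04 ± 0.08, limma adjusted p = 4.43e-09). Mrpl2, of the large mitochondrial ribosomal subunit, was at 139, 143 and 141 TPM in wild type and 71.4, 68.6 and 73.2 TPM in the knockout (-0.98 ± 0.03, limma adjusted p = 1.56e-09), and its partner Klc4, a kinesin light chain whose start it overlaps by 21 bases, at 20.96, 20.8 and 21.1 TPM in wild type and 23.1, 26.1 and 24.9 TPM in the knockout (0.23 ± 0.05, limma adjusted p = 0.00264). The knockout libraries were all low for Tfb1m and Mrpl2 and all high for Klc4. Iars2, the mitochondrial isoleucyl-tRNA synthetase, was at 77.4, 77.7 and 81.2 TPM in wild type and 29.4, 30.7 and 32.1 TPM in the knockout (-1.33 ± 0.04, limma adjusted p = 6.08e-10), and Bpnt1, a nucleotidase 4 bases away, at 75.00, 67.5 and 65.3 TPM in wild type and 59.3, 54.6 and 59.9 TPM in the knockout (-0.25 ± 0.09). Ears2, the mitochondrial glutamyl-tRNA synthetase, was at 15.2, 11.7 and 12.96 TPM in wild type and 3.68, 4.51 and 5.06 TPM in the knockout (-1.40 ± 0.11, limma adjusted p = 9.08e-07) beside Ubfd1 at 114, 105 and 112 TPM in wild type and 107, 108 and 111 TPM in the knockout (-0.02 ± 0.03, limma adjusted p = 0.578). The synthetase side was low in every knockout library of both pairs, and the Ubfd1 libraries overlapped. The call of Bpnt1 was lost in 6 of 21 alternatives (limma adjusted p from 0.0516 to 0.121 without untreated wild type 1 or 2 or untreated knockout 1 or 2).

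Ptcd2/Mrps27 was a pair of 2 genes of mitochondrial gene expression in which both sides fell alike. Ptcd2 was at 61.2, 61.02 and 60.7 TPM in wild type and 42.5, 41.4 and 41.6 TPM in the knockout (-0.53 ± 0.04), and Mrps27 at 93.3, 93.8 and 88.5 TPM in wild type and 58.5, 59.7 and 60.8 TPM in the knockout (-0.62 ± 0.03). Neither overlapped between genotypes, and the sides differed by -0.08 ± 0.05 (limma adjusted p = 0.224). In Mrps12/Sars2, a mitochondrial ribosomal protein beside the mitochondrial seryl-tRNA synthetase, Mrps12 differed by -0.21 ± 0.04 and Sars2 by -0.61 ± 0.05. Cox15, an enzyme of heme A synthesis, was at 22.1, 20.9 and 21.4 TPM in wild type and 10.4, 9.40 and 9.80 TPM in the knockout (-1.05 ± 0.05, limma adjusted p = 1.29e-08), with no overlap. Among tRNA modification genes, Trmt1l fell by 1.04 ± 0.06 beside Swt1 (0.14 ± 0.07, limma adjusted p = 0.088), and Dus4l, a dihydrouridine synthase, fell by 1.09 ± 0.12 beside Cog5, of the Golgi tethering complex, which fell by 0.29 ± 0.07. Elp3, the catalytic subunit of Elongator, fell by 0.41 ± 0.03 while Nuggc beside it rose by 1.01 ± 0.13. The Nuggc libraries were at 0.734, 0.570 and 0.944 TPM in wild type and 2.70, 2.05 and 2.80 TPM in the knockout, near the floor in wild type and apart from the knockout.

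Of 14 members of a replication list 5 were lower and 2 higher, with 6 lower and 2 higher of their 14 partners, beside 21.5% lower and 28.1% higher of all genes. Of the 43 replication genes outside the pairs 21 were lower and 3 higher. Orc5, of the origin recognition complex, was at 103, 108 and 104 TPM in wild type and 46.8, 42.6 and 46.97 TPM in the knockout (-1.19 ± 0.04, limma adjusted p = 2.18e-09), and the transcript 6030443J06Rik 53 bases away was at 4.28, 4.02 and 4.88 TPM in wild type and 1.95, 1.87 and 1.95 TPM in the knockout (-0.88 ± 0.08). Both were low in all 3 knockout libraries. Recql4, a helicase of replication and repair, was at 49.3, 51.8 and 50.1 TPM in wild type and 65.6, 71.7 and 68.7 TPM in the knockout (0.44 ± 0.04, limma adjusted p = 3.23e-06), while Lrrc14, annotated to start at the same base, was at 19.9, 20.6 and 17.3 TPM in wild type and 10.1, 11.5 and 11.6 TPM in the knockout (-0.75 ± 0.09, limma adjusted p = 2.29e-05). The knockout libraries were high for 1 gene and low for the other of a single annotated start. In Mcm4/Prkdc, a replicative helicase subunit beside the DNA-dependent protein kinase, Mcm4 was at 308, 311 and 310.2 TPM in wild type and 293, 281 and 294 TPM in the knockout (-0.10 ± 0.03) and Prkdc at 18.3, 19.04 and 20.6 TPM in wild type and 10.9, 10.6 and 10.9 TPM in the knockout (-0.78 ± 0.05), a side difference of -0.69 ± 0.06 (limma adjusted p = 2.68e-06).

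Among p53 targets, 6 of 10 members rose in the untreated knockout and none fell (median 0.28), and 1 of their 8 partners rose and 1 fell, beside 28.1% higher and 21.5% lower of all genes. Outside the pairs 28 of 33 targets rose and 2 fell. Apaf1, the scaffold of the apoptosome, was at 28.1, 30.1 and 33.5 TPM in wild type and 48.2, 46.5 and 48.3 TPM in the knockout (0.63 ± 0.05, limma adjusted p = 1.09e-06), while Ikbip, whose start it overlaps by 21 bases, was at 26.4, 28.5 and 28.6 TPM in wild type and 29.2, 24.1 and 25.6 TPM in the knockout (-0.08 ± 0.06, limma adjusted p = 0.311). Only the Apaf1 libraries were apart. The stress gene Sesn1 rose by 0.46 ± 0.06 and the centrosome gene Cep57l1 beside it fell by 0.67 ± 0.07, a side difference of 1.14 ± 0.11 (limma adjusted p = 4.24e-06). Polk, a translesion polymerase, rose by 0.64 ± 0.06, with its ceramide-transporting partner Cert1 at 0.13 ± 0.04, a call of Cert1 that was lost in 3 of 21 alternatives (limma adjusted p from 0.064 to 0.0681 without untreated wild type 3 or untreated knockout 2). Of 6 members of a list of SETD1 complex and promoter factors, 3 fell and none rose, beside 21.5% lower and 28.1% higher of all genes. Those that fell were Setd1b (-0.23 ± 0.05), the promoter-binding Thap11 (-0.18 ± 0.04) and the NF-Y subunit Nfya (-0.13 ± 0.04). Of their partners, Cenpt beside Thap11 rose by 0.38 ± 0.06 and Oard1 beside Nfya fell (-0.73 ± 0.05), while AI480526 beside Setd1b was not called (0.30 ± 0.12, limma adjusted p = 0.0596). Outside the pairs, 12 of 36 genes of this SETD1 and promoter list were lower and 8 higher, with a median of -0.00. Of 5 members with histone gene names, 2 H2A and 2 H2B genes of replication-dependent clusters and the replication-independent linker histone gene H1f10, none was called by limma, and H1f10 alone had an unadjusted p under 0.05 (-0.15 ± 0.06, limma adjusted p = 0.0504). Of 27 genes with such names outside the pairs, 12 were higher and none lower. Poly(A) RNA was measured, so histone transcripts without a poly(A) tail would be missed, and these values cover only the RNA captured. H2ac11 was at 6.81, 9.04 and 6.97 TPM in wild type and 8.76, 4.50 and 7.45 TPM in the knockout, and H2bc11, 249 bases away, at 1.31, 1.85 and 2.05 TPM in wild type and 2.43, 0.325 and 1.42 TPM in the knockout, and the groups overlapped for both.

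Both sides also fell in Orc3/Rars2. Orc3, another origin recognition subunit, was at 45.5, 44.9 and 49.1 TPM in wild type and 25.7, 23.3 and 27.5 TPM in the knockout. Rars2, the mitochondrial arginyl-tRNA synthetase annotated to start 1 base before it in the opposite direction, was at 52.2, 50.7 and 50.7 TPM in wild type and 23.96, 23.8 and 25.9 TPM in the knockout. Every knockout library was below every wild-type library for both, and the differences were -0.85 ± 0.13 (limma adjusted p = 1.57e-04) and -1.03 ± 0.04 (limma adjusted p = 5.88e-09). Gemin4 of the SMN complex differed by -0.69 ± 0.04 with Dbil5 at -0.96 ± 0.28, and that call of Dbil5 was lost in 1 of 19 alternatives (limma adjusted p = 0.0509 without untreated knockout 3). Itgb3bp, a kinetochore protein, differed by -0.60 ± 0.08 with Efcab7 at -1.01 ± 0.13, and the centriole gene Cntrob by -0.60 ± 0.10 with the vesicle-tethering gene Trappc1 at -0.68 ± 0.05. Rmnd1, needed for mitochondrial translation, was at 38.02, 34.1 and 35.5 TPM in wild type and 22.8, 25.00 and 21.4 TPM in the knockout, and Armt1, a protein carboxyl methyltransferase, at 52.4, 52.8 and 51.4 TPM in wild type and 33.9, 33.8 and 34.97 TPM in the knockout. The genotypes were apart for both and the sides differed by 0.02 ± 0.07 (limma adjusted p = 0.82).

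Col4a1 and Col4a2, the chains that assemble into type IV collagen of basement membranes, rose by like amounts. Col4a1 was at 13.9, 14.2 and 15.8 TPM in wild type and 22.9, 22.9 and 23.97 TPM in the knockout, and Col4a2 at 3.77, 3.89 and 5.14 TPM in wild type and 6.93, 7.27 and 7.15 TPM in the knockout. All knockout libraries were above all wild-type libraries for both chains, which rose by 0.63 ± 0.05 (limma adjusted p = 1.44e-06) and 0.63 ± 0.10 (limma adjusted p = 2.00e-04). Sncg, gamma-synuclein, was at 11.04, 11.9 and 12.1 TPM in wild type and 18.8, 19.2 and 19.6 TPM in the knockout, and Mmrn2, an extracellular matrix protein of vessels 835 bases away, at 33.7, 33.1 and 34.8 TPM in wild type and 60.4, 62.2 and 58.1 TPM in the knockout. They rose by 0.67 ± 0.10 and 0.81 ± 0.04, with no overlap between genotypes. The calcium-binding genes S100a1 and S100a13 rose by 0.57 ± 0.17 and 0.51 ± 0.10, the former lost in 1 of 21 alternatives (limma adjusted p = 0.0505 without untreated wild type 2). Fam219a/Dnai1 (0.64 ± 0.12 and 0.49 ± 0.13), Tlx2/Pcgf1 (0.41 ± 0.09 and 0.42 ± 0.11) and Vps9d1/Zfp276 (0.39 ± 0.07 and 0.40 ± 0.08) completed the 6 highest-ranked pairs of this kind.

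Opposite movement was led by Tmtc3/Cep290. Tmtc3, an O-mannosyltransferase of cadherins, was at 57.4, 59.1 and 61.8 TPM in wild type and 96.96, 91.9 and 90.2 TPM in the knockout, and Cep290, a protein of the ciliary transition zone 180 bases away, was at 12.1, 11.8 and 13.1 TPM in wild type and 7.35, 6.19 and 6.23 TPM in the knockout. The libraries were apart in opposite directions, with differences of 0.64 ± 0.04 (limma adjusted p = 1.02e-07) and -0.82 ± 0.09 (limma adjusted p = 1.31e-05) and a side difference of -1.46 ± 0.08 (limma adjusted p = 6.18e-08). Zswim7, which acts in homologous recombination, was at 37.6, 45.4 and 42.6 TPM in wild type and 24.4, 23.9 and 28.2 TPM in the knockout (-0.69 ± 0.09), while Ttc19, an assembly factor of respiratory complex III 35 bases away, was at 14.4, 14.5 and 16.9 TPM in wild type and 23.1, 21.1 and 20.5 TPM in the knockout (0.47 ± 0.08). Again the knockout libraries were low for 1 side and high for the other. Jrkl fell by 0.62 ± 0.07 with Ccdc82 rising by 0.55 ± 0.12.

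With etoposide present, the knockout differed from wild type in many of the same pairs, in a comparison of 6 other libraries. Of the members 539 were lower (29.9%, beside 21.7% of all genes) and 374 higher (20.7%, beside 22.5%), 913 in all (50.6%, beside 44.1%). Both sides were lower in 86 pairs (9.41%, beside 5.37%), both higher in 42 (4.60%, beside 5.75%) and opposite in 118 (12.9%, beside 9.11%), with a correlation between sides of -0.03 over the 914 pairs and 0.12 over all neighbouring pairs. The sides differed in 458 pairs (50.1%, beside 39.1%). A side difference was called in both genotype comparisons in 391 pairs, which is 79.8% of the untreated and 85.4% of the treated list, and all 391 kept the same direction. Both sides were lower in both comparisons in 68 pairs (81.9% and 79.1%), both higher in 29 (47.5% and 69.0%) and opposite in 85 (57.8% and 72.0%). The count of 42 was 26 without treated wild-type library 1 and 24 without treated knockout library 1. At 2-fold, 67 members were lower (3.71%, beside 1.71%) and 3 higher (beside 0.517%), and of the 67 partners 20 were lower, 14 higher and 33 not called, with a median of 0.02. Among these 67, 4 partners were themselves 2-fold lower. The count of 67 was 41 with the floor at 5 TPM and 35 with FPKM.

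Coa3, an assembly factor of cytochrome c oxidase, fell together with its partner, at 116, 117 and 114 TPM in treated wild type and 66.7, 64.1 and 65.99 TPM in the treated knockout, and Cntd1, a meiotic crossover factor 255 bases away, at 3.03, 1.83 and 2.63 TPM in treated wild type and 0.497, 0.616 and 0.692 TPM in the treated knockout. Both were apart between genotypes, by -0.81 ± 0.04 (limma adjusted p = 3.53e-08) and -1.11 ± 0.17 (limma adjusted p = 2.54e-04). Pigbos1, a short protein of the mitochondrial outer membrane, was at 16.8, 17.8 and 16.1 TPM in treated wild type and 5.87, 3.71 and 2.10 TPM in the treated knockout (-1.94 ± 0.24, limma adjusted p = 4.16e-05), and Pigb, a GPI-anchor mannosyltransferase 27 bases away, at 26.1, 22.8 and 25.3 TPM in treated wild type and 16.4, 15.2 and 12.99 TPM in the treated knockout (-0.70 ± 0.11). Both were low in all 3 treated knockout libraries and Pigbos1 fell further, with a side difference of -1.24 ± 0.26 (limma adjusted p = 0.00264). Of the imprinted pair Sgce/Peg10, both expressed from the paternal allele in mice, Sgce rose by 0.44 ± 0.09 and Peg10 by 0.98 ± 0.04. Peg10 was at 71.9, 73.9 and 68.9 TPM in treated wild type and 136, 145 and 147 TPM in the treated knockout, with no overlap. Ddit3, the stress transcription factor CHOP, rose by 0.75 ± 0.10 beside Mbd6 at 0.29 ± 0.05. S100a13 rose again by 0.47 ± 0.10, while the calls of S100a1 (0.53 ± 0.17) and Col4a2 (0.32 ± 0.10) were lost in 5 of 21 alternatives (limma adjusted p from 0.0505 to 0.0848 without treated wild type 2 or 3 or treated knockout 1 or 3) and in 3 of 21 alternatives (limma adjusted p from 0.0529 to 0.0669 without treated wild type 2 or 3 or treated knockout 2).

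Rad9b, a paralogue of a subunit of the checkpoint clamp, was at 13.3, 15.1 and 12.1 TPM in treated wild type and 2.39, 2.61 and 2.40 TPM in the treated knockout, beside the retromer subunit Vps29 at 43.4, 44.99 and 44.5 TPM in treated wild type and 46.2, 45.8 and 45.1 TPM in the treated knockout. Rad9b fell by 2.06 ± 0.16 (limma adjusted p = 1.08e-06) with its groups apart, and Vps29, whose groups did not overlap either, differed by 0.04 ± 0.04 (limma adjusted p = 0.355). Polr1has, the antisense transcript of Polr1h, was at 21.4, 23.1 and 18.1 TPM in treated wild type and 5.11, 5.77 and 4.77 TPM in the treated knockout (-1.81 ± 0.10), while Polr1h, a subunit of RNA polymerase I, was at 112, 110.2 and 104 TPM in treated wild type and 111, 113 and 118 TPM in the treated knockout (0.07 ± 0.03, limma adjusted p = 0.114). Whether the deposited values used read strand is not stated, so reads of overlapping antisense transcripts may not be separable. Qtrt2/Ccdc191 kept a side difference of -2.32 ± 0.12 (limma adjusted p = 5.27e-08). In opposite movement, the mitotic gene Hmmr was at 131, 134 and 134 TPM in treated wild type and 182, 193 and 188 TPM in the treated knockout (0.49 ± 0.04, limma adjusted p = 6.79e-07) and Nudcd2, 195 bases away, at 205, 205 and 205 TPM in treated wild type and 143, 144 and 146 TPM in the treated knockout (-0.51 ± 0.02, limma adjusted p = 1.75e-08). The treated knockout libraries were all high for Hmmr and all low for Nudcd2. Centrin gene Cetn4 fell by 1.24 ± 0.14 beside the ciliary chaperonin gene Bbs12 at 0.52 ± 0.16, whose call was lost in 3 of 19 alternatives (limma adjusted p from 0.0558 to 0.0794 without treated wild type 1 or 3 or treated knockout 2). The exonuclease genes Eri2 and Rexo5 differed by -0.42 ± 0.10 and 0.61 ± 0.08.

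Repair members fell again under etoposide. Of the 71 repair members 36 were lower and 9 higher (median -0.18), and of the partners 21 were lower and 15 higher, beside 21.7% lower and 22.5% higher of all genes. Of the 117 repair genes outside the pairs 56 were lower and 24 higher (median -0.12). Mcm8 was at 27.4, 27.3 and 28.03 TPM in treated wild type and 10.5, 9.79 and 10.1 TPM in the treated knockout, Rad51c at 14.2, 14.1 and 14.1 TPM in treated wild type and 3.72, 3.43 and 3.69 TPM in the treated knockout, and Fancd2 at 47.2, 47.7 and 47.3 TPM in treated wild type and 24.96, 25.4 and 25.02 TPM in the treated knockout. All 3 were apart between genotypes, with differences of -1.36 ± 0.05 (limma adjusted p = 1.98e-09), -1.71 ± 0.06 (limma adjusted p = 2.08e-09) and -0.89 ± 0.03 (limma adjusted p = 3.31e-09). The side differences were -1.57 ± 0.07, 1.20 ± 0.08 and -1.03 ± 0.06. Rars2 fell by 1.01 ± 0.04 while the call of Orc3 (-0.42 ± 0.13) was lost in 4 of 21 alternatives (limma adjusted p from 0.0616 to 0.0726 without treated wild type 3 or treated knockout 1 or 3), treated knockout library 2 standing at 39.2 TPM for Orc3 and inside the wild-type range.

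Etoposide changed fewer members than genotype did, and most pairs with both sides called moved in the same direction. In wild-type cells 334 members rose (18.5%, beside 20.8% of all genes) and 212 fell (11.8%, beside 13.5%), 546 in all (30.3%, beside 34.3%). The balance depended on scaling: rises were 61.2% of the calls on TPM, 47.9% after median-of-ratios scaling (279 higher and 304 lower), 47.2% after quantile normalization (258 and 289) and 52.0% with FPKM. Both sides rose in 47 pairs (5.14%, beside 5.61%), both fell in 18 (1.97%, beside 2.06%) and they moved in opposite directions in 19 (2.08%, beside 4.71%). Of these 84 pairs 77.4% moved in the same direction, against 61.9% of 1745 neighbouring pairs, and the correlation between sides was 0.26 over the 914 pairs and 0.10 over all neighbouring pairs. Neighbours up to 10000 bases apart were nearer to the divergent pairs in part. The share and correlation were 71.2% of 66 pairs and 0.28 on the same strand. They were 70.9% of 55 and 0.19 for genes transcribed towards each other, and 66.2% of 71 and 0.11 for other head-to-head neighbours. The sides differed in 225 divergent pairs (24.6%, beside 30.8%). A rise of at least 2-fold was called for 20 members (1.11%, beside 2.5%), of whose partners 9 rose, 1 fell and 10 were not called (median 0.29), and no member fell 2-fold (beside 0.0%), although 703 members had an unadjusted p under 0.05. In knockout cells 244 members rose (13.5%, beside 14.5%) and 159 fell (8.81%, beside 10.5%), 403 in all (22.3%, beside 25.0%). There both sides rose in 30 pairs (3.28%, beside 2.69%), both fell in 13 (1.42%, beside 1.37%) and 8 were opposite (0.875%, beside 2.48%), and the sides differed in 148 pairs (16.2%, beside 21.6%). A called rise of at least 2-fold was found for 5 members (beside 0.865%) and a fall of that size for none by limma (beside 0.0284%), with 602 members at an unadjusted p under 0.05. Of the 51 pairs with both sides called 84.3% moved the same way, against 62.0% of neighbours, with a correlation of 0.21 and 0.09. Up to 10000 bases apart, the values were 81.25% of 32 pairs and 0.18 for same-strand neighbours. They were 75.0% of 24 and 0.14 for genes transcribed towards each other, and 57.1% of 35 and 0.10 for other head-to-head neighbours. A side difference with etoposide was called in both genotypes in 119 pairs (52.9% of the wild-type and 80.4% of the knockout list).

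Tap1 of the Psmb9/Tap1 pair, 2 genes of antigen presentation by class I molecules, led the side differences with etoposide in both genotypes. Tap1, a peptide transporter, was at 1.64, 1.62 and 1.60 TPM in untreated wild type and 14.4, 14.2 and 14.9 TPM in treated wild type, and at 6.56, 4.92 and 5.63 TPM in the untreated knockout and 19.1, 18.03 and 15.9 TPM in the treated knockout. Psmb9, an immunoproteasome subunit 183 bases away, was at 0.727, 0.495 and 0.848 TPM in untreated wild type and 2.26, 1.44 and 1.98 TPM in treated wild type, and at 1.05, 0.870 and 0.303 TPM in the untreated knockout and 0.891, 1.24 and 0.875 TPM in the treated knockout. The treated libraries were above the untreated ones for Tap1 in both genotypes and for Psmb9 in wild type, while the Psmb9 groups overlapped in the knockout. Psmb9 stood near the floor of 1 TPM and was above it in all 3 libraries only in treated wild type. Its mean over the 12 libraries met the floor through that group, so its rise there is a description. Tap1 rose by 2.56 ± 0.09 (limma adjusted p = 1.12e-09) and 1.48 ± 0.09 (limma adjusted p = 3.20e-07), and in wild type the sides differed by 1.79 ± 0.19 (limma adjusted p = 1.53e-05). Mmrn2 was at 72.3, 75.6 and 74.4 TPM in treated wild type and 96.4, 92.5 and 89.3 TPM in the treated knockout, and Sncg at 22.2, 23.1 and 19.8 TPM in treated wild type and 28.1, 22.3 and 30.6 TPM in the treated knockout. Compared with the untreated values given above, Mmrn2 rose by 1.11 ± 0.04 in wild type and 0.61 ± 0.04 in the knockout, and Sncg by 0.84 ± 0.10 and 0.46 ± 0.10. Dok1 and Loxl3 rose together in wild type, by 0.82 ± 0.05 and 0.69 ± 0.11.

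The p53 targets among the members rose with the drug in most cases. In wild type 6 of 10 rose and none fell, with 2 of 8 partners higher, and in the knockout the counts were also 6 of 10 and 2 of 8, beside 20.8% of all genes higher in wild type and 14.5% in the knockout. Of the 33 targets outside the pairs 29 rose in each genotype, so targets outside the pairs rose too. Apaf1 was at 72.4, 70.9 and 69.2 TPM in treated wild type and 77.6, 77.1 and 76.8 TPM in the treated knockout, rises of 1.19 ± 0.05 (limma adjusted p = 4.89e-09) and 0.68 ± 0.05 (limma adjusted p = 1.44e-06). Ikbip rose with it, at 41.6, 46.1 and 44.9 TPM in treated wild type and 38.02, 36.1 and 36.6 TPM in the treated knockout, by 0.65 ± 0.06 and 0.48 ± 0.06. No treated library overlapped an untreated one for either gene in either genotype. Pidd1, the scaffold of a caspase-2 complex, was at 50.5, 43.7 and 44.9 TPM in untreated and 96.4, 99.8 and 92.04 TPM in treated wild type (1.04 ± 0.06, limma adjusted p = 1.18e-07), while the ribosomal protein gene Rplp2 87 bases away was at 2502, 2391 and 2424 TPM in untreated wild type and 2572, 2451 and 2531 TPM in treated wild type (0.05 ± 0.02, limma adjusted p = 0.13). Only the Pidd1 libraries were apart. Polk rose by 1.01 ± 0.06 with Cert1 at -0.02 ± 0.04 (limma adjusted p = 0.713), and Zmat3, an RNA-binding p53 target, by 0.71 ± 0.04.

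In Calcoco2/Ttll6, Ttll6, a tubulin polyglutamylase, was at 28.7, 29.2 and 26.1 TPM in untreated and 59.2, 56.1 and 59.1 TPM in treated wild type, and Calcoco2, an autophagy receptor whose start it overlaps by 79 bases, at 264, 258 and 255 TPM in untreated wild type and 204, 206 and 204 TPM in treated wild type. The libraries were apart in opposite directions, by 1.03 ± 0.06 (limma adjusted p = 5.57e-08) and -0.34 ± 0.03 (limma adjusted p = 7.14e-07). Fkbp10, a collagen chaperone, rose by 1.68 ± 0.08 beside P3h4 at 0.29 ± 0.13 (limma adjusted p = 0.099), and the taste receptor gene Tas1r1 by 1.39 ± 0.11 beside the ribosome biogenesis gene Nol9 at -0.06 ± 0.03 (limma adjusted p = 0.17). Shpk, a sedoheptulose kinase, rose by 1.57 ± 0.12 in wild type and 1.17 ± 0.12 in the knockout, beside the lysosomal cystine transporter Ctns at 0.29 ± 0.06 and 0.08 ± 0.06. Ppp1r13l, which encodes the p53 inhibitor iASPP, rose by 0.92 ± 0.05 and 0.91 ± 0.05, beside the RNA polymerase I subunit Polr1g at -0.15 ± 0.04 and -0.10 ± 0.04, the former call lost in 3 of 21 alternatives (limma adjusted p from 0.0582 to 0.0787 without untreated wild type 1 or 3 or treated wild type 3). Joint decreases were small: Taf5l and Urb2 differed by -0.26 ± 0.03 and -0.24 ± 0.04 in wild type and by -0.28 ± 0.03 and -0.22 ± 0.04 in the knockout, and Esf1 and Ndufaf5 by -0.24 ± 0.04 and -0.32 ± 0.07. Prkdc rose by 0.25 ± 0.05 with etoposide in wild type while Mcm4 fell by 0.12 ± 0.03, and the matching rise of Prkdc in the knockout (0.18 ± 0.05) was lost in 8 of 21 alternatives (limma adjusted p from 0.0544 to 0.0833 without untreated knockout 1, 2 or 3 or treated knockout 1, 2 or 3). The decrease of Mcm4 in both genotypes was lost under quantile normalization.

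The etoposide response itself differed between genotypes for few members. An interaction term was called for 16 of 1804 members (0.887%, beside 1.23% of all genes), 2 higher and 14 lower in the knockout (0.111% and 0.776%, beside 0.0709% and 1.16%), and 181 members had an unadjusted p under 0.05. No pair had both sides called for the interaction (beside 0.00709% of neighbouring pairs with both lower). The count was 8 to 12 when 1 library was left out, as low as 8 without treated wild-type library 3 or treated knockout library 1, 9 without untreated wild-type library 2, treated wild-type library 2 or treated knockout library 3, and 10 without treated wild-type library 1 or untreated knockout library 1 or 3. Tap1 had the lowest interaction, -1.08 ± 0.13 (limma adjusted p = 0.00113), its untreated knockout level being above its untreated wild-type level. Mst1, a hepatocyte growth factor-like protein, was at 10.1, 11.4 and 9.75 TPM in untreated wild type and 32.3, 33.6 and 32.4 TPM in treated wild type, and at 15.7, 14.9 and 12.96 TPM in the untreated knockout and 30.1, 27.4 and 29.2 TPM in the treated knockout, an interaction of -0.62 ± 0.10 (limma adjusted p = 0.0107). In both genotypes the treated libraries were all above the untreated ones. Calcoco2, which fell less in the knockout, was higher at 0.23 ± 0.04 (limma adjusted p = 0.00827).

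Some sides were transcripts with clone or model names, and some of them moved alone. Gm5617 was at 15.6, 13.1 and 13.9 TPM in untreated wild type and 2.12, 3.13 and 4.64 TPM in the knockout (-1.86 ± 0.18, limma adjusted p = 5.23e-06), while Rbm7, of the nuclear exosome targeting complex 13 bases away, was at 72.6, 80.8 and 79.03 TPM in wild type and 80.7, 74.1 and 83.4 TPM in the knockout (0.03 ± 0.05, limma adjusted p = 0.60). The groups were apart for Gm5617 alone. 4930558J18Rik was at 6.44, 7.89 and 7.90 TPM in wild type and 2.55, 1.91 and 1.86 TPM in the knockout (-1.44 ± 0.10, limma adjusted p = 4.63e-07) beside 1700066M21Rik at 15.98, 16.9 and 16.4 TPM in wild type and 20.1, 19.5 and 16.96 TPM in the knockout (0.19 ± 0.06), a call that was lost in 8 of 21 alternatives (limma adjusted p from 0.0648 to 0.119 without untreated wild type 1 or 3 or untreated knockout 1 or 2). In the 147 pairs of a coding gene with a long noncoding RNA, 9 were both lower (6.12%), 9 both higher (6.12%) and 15 opposite (10.2%) in the untreated knockout, against 68 (9.70%), 45 (6.42%) and 123 (17.5%) of the 701 pairs of coding genes.

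The composition of the promoter windows of members is given beside that of all tested genes, which include the members, with no test. RefSeq windows of GRCm38.p6 were matched by symbol for 1439 of the 1804 members and 10408 tested genes. The choice among several windows of a gene was unlike. For members with both sides of the pair in the table it was the window nearest the deposited offset. For all tested genes it was the first listed, so the shares below are not fully comparable. The median ratio of observed to expected CpG was 0.866 in members and 0.758 in all tested genes, and the median GC content 62.7% and 60.7%. The ETS motif CCGGAAG, on either strand, was in 30.3% of the member windows and 18.4% of all windows of that length, ATGGCGGC in 8.34% and 5.10%, GGGCGG in 68.2% and 64.0%, CCAAT in 41.8% and 39.6%, and TATAAA in 4.52% and 6.90%. Also searched were GCGCATGCG (4.66% and 3.69%), ACTACAA (6.32% and 4.38%), TGACGTCA (4.73% and 3.22%), TTGGCGC (7.09% and 4.52%) and CACGTG (11.5% and 10.3%). CCGGAAG was in 33.9% of the members that fell in the untreated knockout, 30.3% of those that rose and 27.7% of those not called. It was in 31.8% of the 44 windows of members at least 2-fold lower and 27.1% of the 48 windows of their partners. Both sides had a window in 632 pairs, of which 182 had the same offset as in the deposited tables and 450 an offset within 100 bases of it. Among pairs named above, larger gaps between the deposited and the RefSeq offset included Srsf7/Gemin6 (199 and 17146 bases) and Mbd6/Ddit3 (-76 and 1775). Others were Cep57l1/Sesn1 (157 and 706) and Jrkl/Ccdc82 (827 and 1215). The sign differed for some pairs, among them Mmachc/Ccdc163 (-45 and 210), S100a1/S100a13 (-95 and 105), Rmnd1/Armt1 (-11 and 217) and Orc3/Rars2 (-1 and 15). The windows of both sides of a pair can overlap, and a match is a description and not a site.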

How the data were processed

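Poly(A)-selected RNA of 12 mouse embryonic stem cell libraries, 3 per group, was sequenced with a strand-specific kit, per the labels' protocols. The submitters' processing notes name Trim Galore 0.6.6, cutadapt 3.4, HISAT2 2.2.1, StringTie 2.2.1 and the build GRCm39 (mm39), and whether counting used strand is not given in the sources used here. The deposited tables hold TPM, FPKM and coverage per gene, per the file headers. The ratio of coverage to FPKM that occurred most often in a library gave the depth, 5.23 to 7.76 gigabases, and no read counts are used here, so no counting interval is given. Labels call the libraries biological replicates without naming separate cultures, so the p-values reflect only how far these libraries vary, which may be technical. Replicate numbers did not pair them: 18 correlations of same-numbered libraries ran from -0.04 to 0.05.

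Genes with 1 row and a mean of at least 1 TPM (14107) entered limma 3.58.1 (R 4.3.3, trend, 4 group means, two-sided, Benjamini-Hochberg) as log2(TPM + 1), which understates the change of low genes. A second limma model of the + minus - gene difference ran on 14106 neighbouring pairs. Tested on simulated data for untreated knockout against wild type, the gene step over 14107 genes recovered 84% of changes of 0.5 and 96% of changes of 1 on the log2 scale, and the side step over 14106 pairs 70% and 95.3%. The simulation changed only 50 genes at each size, with independent noise, while 7000 genes were called in the data. The Benjamini-Hochberg cut-off thus differed, and these rates need not hold for the real fit. The members and lists were chosen with earlier results of these data known. Named pairs are, per genotype comparison, the 6 both lower, 6 both higher and 6 opposite with the largest smaller change and the 6 largest side differences; 3 of each per etoposide comparison; 3 highest and 3 lowest interaction members; 4 pairs with a clone or antisense side; up to 6 pairs per list by lowest p; and 2 pairs on each side of each limit. A few named pairs are not reported here. Alternatives were the pseudocount, filters, FPKM, 2 scalings, the replicate block, robust variances, compared groups only, narrower windows and each library left out.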

Additional observations from a re-analysis of the deposited data

Results flagged for a closer look

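For 9 members described here the etoposide response differed between genotypes by the interaction term of limma (Benjamini-Hochberg over 14107 genes), given as the knockout minus the wild-type response on the log2 scale. The response was smaller in the knockout for Tap1, the peptide transporter (-1.08), Mst1 (-0.62), the stress cytokine Gdf15 (-0.57), the collagen chaperone Fkbp10 (-0.53), Apaf1 of the apoptosome (-0.51), Mmrn2 (-0.49) and Tmem43 (-0.40). It was higher for Calcoco2 (0.23) and for the RNA-binding protein Hnrnpc (0.12). Of the 9 calls, Fkbp10 was lost in 13 of 20 alternatives (limma adjusted p from 0.0701 to 0.11 without untreated wild type 1 or 2, treated wild type 1, 2 or 3, untreated knockout 1 or 3 or treated knockout 1, 2 or 3), Gdf15 in 14 of 20 alternatives (limma adjusted p from 0.0527 to 0.104 without untreated wild type 1 or 2, treated wild type 1, 2 or 3, untreated knockout 1, 2 or 3 or treated knockout 1 or 3) and Hnrnpc in 16 of 20 alternatives (limma adjusted p from 0.0738 to 0.141 without untreated wild type 1, 2 or 3, treated wild type 1 or 3, untreated knockout 1, 2 or 3 or treated knockout 1, 2 or 3). Tmem43 was lost only without the filter on low values. The untreated knockout level of Tap1 was 5.70 ± 0.820 TPM (SD, n = 3) against 1.62 ± 0.0248 TPM in untreated wild type.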

How the results depend on the processing

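For the 17 counts that answer a comparison, 370 recomputed values stayed within 1.5 times the reported count and 20 did not. A count has no direction that could reverse. The balance of rises and falls did turn for etoposide in wild type. It was 334 members higher and 212 lower on TPM, 279 and 304 after median-of-ratios scaling and 258 and 289 after quantile normalization. Over all genes the balance turned with FPKM in both genotype comparisons. It went from 3961 higher and 3039 lower to 3090 and 3204 in untreated cells, and from 3168 and 3060 to 2578 and 3048 with etoposide. The pairs with both sides higher in the treated knockout, 42, became 27 without the filter on low values and 27 with FPKM, and 24 to 42 when 1 library was left out (26 without treated wild-type library 1 and 24 without treated knockout library 1). The 16 interaction calls became 9 without the filter, 10 after median-of-ratios scaling, 9 after quantile normalization, 9 with the replicate block and 8 to 12 when 1 library was left out. Members at least 2-fold lower in the untreated knockout, 58, became 95 with a pseudocount of 0.1 and 33 with FPKM, and the 67 in the treated knockout became 41 with the floor at 5 TPM and 35 with FPKM; alternatives for these 2-fold counts were chosen after seeing the data. When 1 library was left out, the changed members were 909 to 1008 in the untreated and 795 to 916 in the treated genotype comparison, and 449 to 553 and 293 to 403 for etoposide in wild type and knockout. With the replicate block, 999 members changed and 491 pairs had a side difference in the untreated knockout, and 897, 521 and 380 members changed in the other 3 comparisons. The block changed no other count by over 1.5 times. Among 616 results for named genes and pairs, 133 lost their call under at least 1 alternative and none reversed. Low genes have the widest errors, and the depth behind each value cannot be given as counts.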
